A study of Mus musculus with 6 samples.

Results

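The genes described here are the collagens and a set of genes expressed by meningeal fibroblasts, followed across 6 RNA-seq libraries of the suprachiasmatic nucleus (SCN) of the mouse, a paired hypothalamic nucleus that holds the master clock of daily rhythms. They were taken by symbol and not by value, but with earlier results of these data known, so their levels are a description only. Every gene whose symbol is Col, a number, a and a number was taken (44 genes), together with Dcn, Lum, Ogn, Igfbp2, Slc6a20a, Slc22a6, Fmod, Aebp1, Islr, Serping1 and Ptgds (11 genes). These are 55 of the 17645 genes listed in at least 1 library, and all 55 had counts above 0 in every library.

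Of the 6 libraries, 3 were titled r1r2V (replicates 1, 4 and 5) and 3 were titled V (replicates 2, 3 and 4). The titles were taken to mean that r1r2V mice lacked Rev-erbα and Rev-erbβ (genes Nr1d1 and Nr1d2) in GABAergic neurons, the knockout the series names, and that V mice were their controls. The labels spell out neither code and give no allele, Cre driver, age or control genotype. All mice were female C57BL/6 animals killed in darkness at zeitgeber time 12 to 14 hours, and the SCN was taken with a needle from frozen coronal sections. Each library was made from the pooled RNA of 2 SCN. Nothing says that pools came from separate animals, so p-values measure only the spread between these samples, which may be technical.

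Collagens are secreted as trimers whose chains wind around each other along a stretch in which glycine recurs at every 3rd residue. Fibrillar collagens build the fibres of connective tissue, FACIT collagens sit on the surface of those fibres, type IV collagen forms the sheet of basement membranes, and a few collagens span the cell membrane. In the brain, fibroblasts of the meninges and of the spaces around larger vessels make most fibrillar collagen, vascular cells and fibroblasts make basement membrane collagen, and some collagens are made by neurons. The other 11 genes encode proteoglycans that bind collagen fibrils (Dcn, Lum, Ogn and Fmod), secreted proteins (Ptgds, Igfbp2, Serping1, Aebp1 and Islr) and transporters (Slc6a20a and Slc22a6).

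The coding sequences show what sets the collagens apart as transcripts, and they are given because transcript length and base composition return in the results below. Each line holds 90 bases (30 codons) of the sense strand in the GENCODE transcripts of GRCm38 (the mm10 build), 5′ to 3′, with in-frame glycine codons (GGN) in capitals. The collagen lines start at the first codon of the longest run of GGN at every 3rd codon, and the Dcn and Ogn lines are the middle of the coding sequence.
Col4a2, codons 777 to 806: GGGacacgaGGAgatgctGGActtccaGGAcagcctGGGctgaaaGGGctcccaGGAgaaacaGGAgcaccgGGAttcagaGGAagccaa
Col16a1, codons 1006 to 1035: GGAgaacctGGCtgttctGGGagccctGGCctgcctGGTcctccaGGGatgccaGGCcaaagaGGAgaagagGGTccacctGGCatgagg
Col1a2, codons 97 to 126: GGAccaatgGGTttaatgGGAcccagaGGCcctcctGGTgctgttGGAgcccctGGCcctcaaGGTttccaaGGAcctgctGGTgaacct
Dcn, codons 163 to 192: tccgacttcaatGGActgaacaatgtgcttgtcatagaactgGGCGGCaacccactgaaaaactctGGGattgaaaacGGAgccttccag
Ogn, codons 135 to 164: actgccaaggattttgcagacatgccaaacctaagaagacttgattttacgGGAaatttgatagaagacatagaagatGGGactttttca
The 3 collagen stretches hold 10 GGN codons each, the Dcn stretch 5 and the Ogn stretch 2. Over the whole coding sequence the longest run of GGN at every 3rd codon was 339 triplets in Col1a2, 66 in Col4a2 and 52 in Col16a1, and 1 in both Dcn and Ogn. The GC content of these stretches was 64.4% in Col16a1, 60.0% in Col4a2 and Col1a2, 48.9% in Dcn and 37.8% in Ogn. Over the transcripts of the tested genes, the median GC content was 55.7% for the collagens, 52.3% for the fibroblast genes and 50.3% for all genes, and the median length was 6132 bases for the collagens, 2075 for the fibroblast genes and 2951 for all genes. These genes lie on chromosome 8 from 11312805 to 11449287 (Col4a2), chromosome 4 from 130047817 to 130099277 (Col16a1), chromosome 6 from 4505618 to 4541543 (Col1a2), chromosome 10 from 97479500 to 97518163 (Dcn) and chromosome 13 from 49608015 to 49624501 (Ogn), all on the plus strand.

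Total expected counts, the estimated read numbers of a library, were 17040698 to 17566335 in r1r2V and 15729603 to 17780928 in V. Levels below are CPM (read counts scaled to a common library size) on library sizes with trimmed mean of M-values (TMM) scaling, and the values of a group follow its replicate numbers. The targeted genes were not lower in the libraries labelled r1r2V. Nr1d1 had 196, 157 and 147 CPM in r1r2V, against 56.7, 62.5 and 57.0 CPM in V, and Nr1d2 had 229, 275 and 222 CPM in r1r2V, against 177, 179 and 168 CPM in V, so every direction below rests on the titles. The SCN transcription factor gene Six6 was detected in all libraries, at 15.5, 16.9 and 17.7 CPM in r1r2V, against 13.3, 27.1 and 17.1 CPM in V. Pairs of r1r2V libraries lay further apart than pairs of V libraries: the chi-square per degree of freedom between pairs, which is about 1 under sampling noise alone, ran from 11.6 to 13.5 in r1r2V and from 3.83 to 4.55 in V. Replicate 5 of r1r2V stood apart in some genes of neurons of and around the SCN. Of 15 tested genes of neighbouring hypothalamic neurons it was the highest library for 3 and the lowest for 4, and r1r2V replicate 4 was lowest for 7. Of 16 SCN neuron genes replicate 5 was the highest library for 1 and the lowest for 8. Vip, a peptide gene of the ventral SCN, had 50.5, 72.0 and 11.4 CPM in r1r2V, against 85.8, 53.0 and 51.8 CPM in V, and Pmch, a peptide gene of the lateral hypothalamus, had 16.8, 1.67 and 581 CPM in r1r2V, against 12.4, 213 and 23.3 CPM in V.

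The 11 meningeal fibroblast genes had their highest level in r1r2V replicate 5 in 9 cases (81.8%), where 16.7% of all genes tested did. Summed over the 11 genes, the level was 330, 296 and 895 CPM in r1r2V, against 431, 546 and 433 CPM in V, and most of each sum was Ptgds. The median log2 level relative to the V mean was -0.24, -0.15 and 0.94 in r1r2V, against -0.01, 0.21 and -0.18 in V. Aebp1, with V replicate 3 highest, and Lum, with r1r2V replicate 4 highest, were the exceptions. In bulk RNA, more cells of a type and more RNA per cell cannot be told apart.

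Among the proteoglycan genes, Fmod and Ogn spread most. Fmod, which encodes fibromodulin, had 5.63, 5.34 and 24.5 CPM in r1r2V, against 8.18, 13.4 and 5.65 CPM in V. Replicate 5 was 4.46-fold above the mean of the other r1r2V libraries, which lay just below the lowest V library. Ogn, which encodes osteoglycin, had 4.58, 12.2 and 23.4 CPM in r1r2V, against 6.04, 9.97 and 5.71 CPM in V. Replicate 1 was the lowest of all 6 libraries and replicates 4 and 5 the highest, so the r1r2V libraries lay on both sides of V. Dcn, which encodes decorin, had 13.6, 17.4 and 27.4 CPM in r1r2V, against 15.3, 15.2 and 12.6 CPM in V. Here only replicate 1 overlapped V. Lum, which encodes lumican and lies 47337 bp from Dcn on the same strand of chromosome 10, had 1.45, 4.65 and 4.37 CPM in r1r2V, against 2.99, 2.2 and 1.02 CPM in V. As with Dcn, replicates 4 and 5 lay above every V library and replicate 1 did not.

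Ptgds, which encodes the lipocalin-type prostaglandin D synthase of meninges, oligodendrocytes and choroid plexus, had by far the highest level per length of the 55 genes, with a mean of 558 ± 402 FPKM in r1r2V and 535 ± 74.5 FPKM in V (SD, n = 3 each; FPKM, fragments scaled by transcript length and library size). It had 251, 210 and 722 CPM in r1r2V, against 340, 436 and 358 CPM in V. Replicate 5 lay above all V libraries and replicates 1 and 4 below all of them. The same order was seen for Igfbp2, which encodes a binding protein of insulin-like growth factors, with 8.24, 7.41 and 23.3 CPM in r1r2V, against 12.3, 17.1 and 8.82 CPM in V. Serping1, which encodes the complement C1 inhibitor, had 7.20, 8.21 and 12.8 CPM in r1r2V, against 8.92, 6.48 and 6.98 CPM in V. Islr, which encodes a secreted leucine-rich protein of mesenchymal cells, had 6.67, 6.26 and 11.7 CPM in r1r2V, against 5.76, 7.55 and 6.09 CPM in V. In both, replicate 5 was above V and the other r1r2V libraries were inside the range of V. Aebp1, which encodes a collagen-binding secreted protein, spread least in r1r2V, with 26.5, 18.4 and 30.2 CPM in r1r2V, against 26.0, 30.3 and 22.8 CPM in V. Replicate 4 lay below V and replicates 1 and 5 within its range.

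The transporter genes followed the same library. Slc6a20a, which encodes a transporter of proline and related imino acids, had 3.66, 3.68 and 10.1 CPM in r1r2V, against 4.18, 4.56 and 3.74 CPM in V. Slc22a6, which encodes an organic anion transporter, had 1.51, 1.55 and 4.95 CPM in r1r2V, against 1.13, 2.93 and 1.90 CPM in V. Outside replicate 5, r1r2V levels lay just below the range of V for Slc6a20a and inside it for Slc22a6. Exons of Slc6a20a overlap those of Gm17120 on the other strand by 563 bp. The sources used here do not say whether counting used strand. Exons of Islr overlap those of Islr2 on the same strand by 181 bp, which use of strand would not separate.

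**Figure D1:**
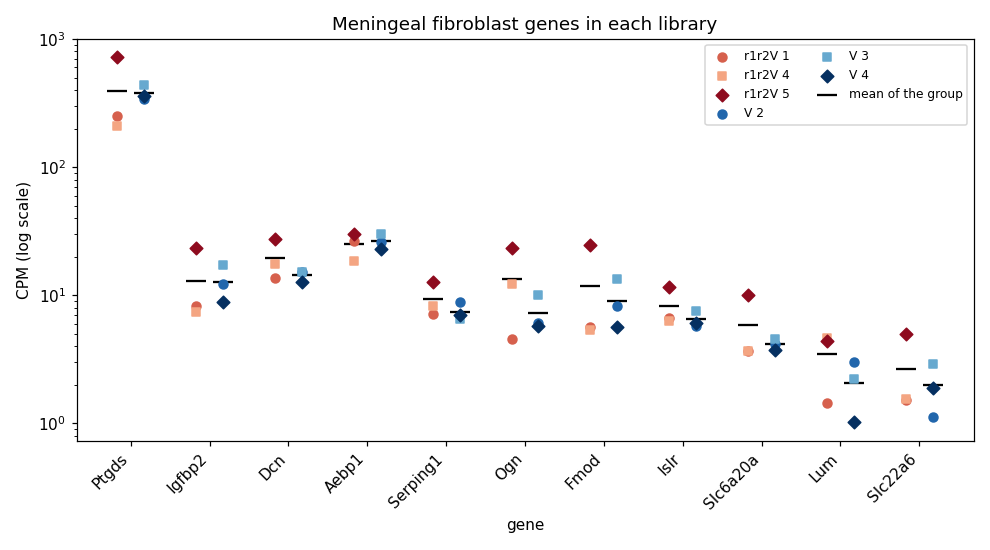
Level of the 11 meningeal fibroblast genes in each library, in CPM on a log scale, with r1r2V libraries in reds left of V libraries in blues and the mean of each group as a bar. Replicate 5 of r1r2V is the highest point for 9 of the 11 genes, with Ptgds at 722 CPM there and at 210 to 436 CPM in the other libraries.

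None of the 11 fibroblast genes passed edgeR's quasi-likelihood test at an adjusted p of 0.05, with adjustment over all 14438 genes tested. Across all genes 60 passed (0.416%), 43 of them higher in r1r2V (0.298%) and 17 lower (0.118%). Ogn had the largest log2 fold change of the 11, 0.88 ± 0.459 (standard error; adjusted p = 0.678), and Dcn the smallest adjusted p, 0.666, at 0.44 ± 0.217. The log2 fold change was 0.74 for Lum, 0.48 for Slc6a20a, 0.42 for Slc22a6, 0.37 for Fmod, 0.34 for Islr, 0.33 for Serping1, 0.06 for Ptgds, 0.02 for Igfbp2 and -0.08 for Aebp1. Of the 11, 10 were positive, and the median was 0.37, against 0.01 and 52.5% positive for all genes tested.

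Most of those directions rested on r1r2V replicate 5. Without it 4 of the 11 were positive (Ogn, Lum, Dcn and Serping1), and the median log2 fold change was -0.19. Ptgds then passed as lower in r1r2V, at a log2 fold change of -0.72 ± 0.115 (standard error; edgeR adjusted p = 0.0344). It was the only one of the 52 tested genes of the set to pass in that fit, in which 0.358% of all genes passed as higher and 0.103% as lower. Fmod had -0.74 and Igfbp2 -0.71 in the same fit, with adjusted p of 0.430 and 0.360, the lowest either had over all alternatives. For Ptgds the adjusted p over the alternatives ran from 0.0344 to 1. Without r1r2V replicate 1 the median of the 11 was 0.64.

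Ptgds is also made by oligodendrocytes, and the myelin genes were measured beside it. Mbp had 2330, 2410 and 2910 CPM in r1r2V, against 2550, 2350 and 3440 CPM in V, and Mobp had 220, 204 and 247 CPM in r1r2V, against 209, 197 and 289 CPM in V. The highest library of both was V replicate 4, where Ptgds had 358 CPM. Of 15 oligodendrocyte markers, 0 passed by edgeR, limma-voom or DESeq2, 0 had an unadjusted p under 0.05, and the median log2 fold change was -0.01 (-0.16 without r1r2V replicate 5 and 0.14 without V replicate 4). Their summed level was 6165, 6652 and 7955 CPM in r1r2V, against 6437, 6285 and 8702 CPM in V. The highest library was r1r2V replicate 5 for 6 of the 15 (40.0%, against 16.7% of all genes) and V replicate 4 for the other 9, and the median log2 level relative to the V mean was 0.22 in r1r2V replicate 5, the library where Ptgds was highest. Their part in the Ptgds level was not tested. Choroid plexus markers differed in level, with a summed level of 345, 411 and 330 CPM in r1r2V, against 339, 317 and 332 CPM in V. Most of each sum came from Enpp2 (185, 219 and 231 CPM in r1r2V, against 181, 180 and 215 CPM in V), which the oligodendrocyte list also holds, and Prlr (107, 128 and 55.4 CPM in r1r2V, against 103, 82.6 and 73.1 CPM in V), and Clic6 had 21.3 to 37.5 CPM in r1r2V and 19.5 to 30.4 CPM in V. Ttr, the most abundant transcript of that tissue, had 2.79, 2.53 and 0.35 CPM in r1r2V, against 0.677, 0.676 and 0.444 CPM in V. Folr1 had 0.804 to 1.16 CPM in r1r2V and 0.789 to 1.40 CPM in V, and Kl had 6.64 to 7.49 CPM in r1r2V and 6.08 to 8.46 CPM in V.

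Of the 44 collagen genes, 41 passed the filter on low counts, and Col10a1, Col17a1 and Col6a6 did not. Collagen levels were most often highest in another library than those of the fibroblast genes. The highest level was in r1r2V replicate 1 for 20 of the 41 tested (48.8%, against 20.2% of all genes), and the lowest in r1r2V replicate 4 for 19 (46.3%, against 24.8%). Replicate 4 was the highest library for 0 collagens. The median log2 level relative to the V mean was 0.28, -0.18 and -0.03 in r1r2V, against -0.08, 0.06 and 0.03 in V. Replicate 5 was the highest library for 8 collagens (19.5%, near the 16.7% of all genes). They were Col1a1, Col1a2, Col3a1, Col5a2, Col6a1, Col6a2, Col8a1 and Col14a1.

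**Figure D2:**
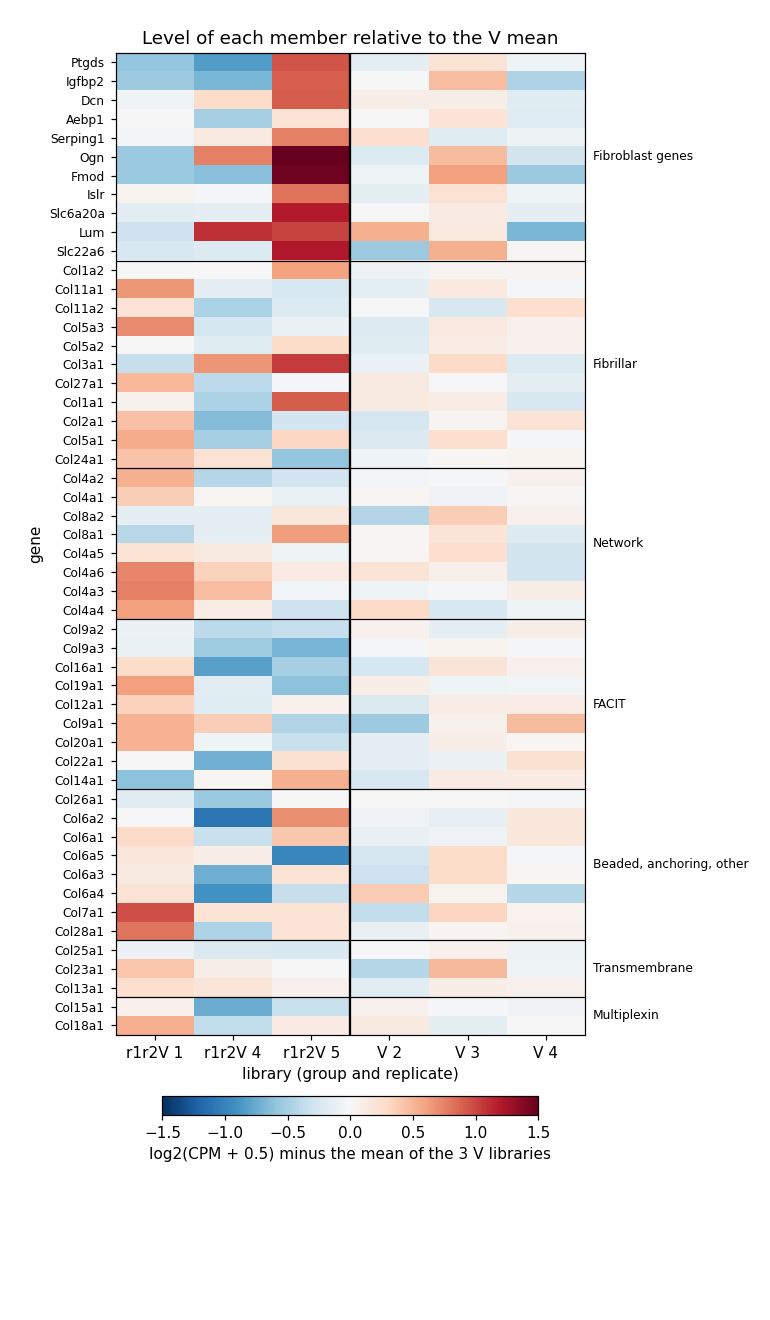
Difference of each tested gene's log2(CPM + 0.5) from the mean of the 3 V libraries, with r1r2V libraries left of V libraries, genes grouped by family and colours ending at 1.5 log2 units. The fibroblast genes and a few fibrillar collagens are high in r1r2V replicate 5. Of the 41 tested collagens, r1r2V replicate 1 is the highest library for 20 and r1r2V replicate 4 the lowest for 19.

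Fibrillar collagens were low in SCN tissue, and of the 11 only Col1a2, Col11a1 and Col11a2 reached a mean of 2 FPKM. Col1a2, which encodes a chain of type I collagen, the main fibre of meninges and skin, had 17.8, 17.5 and 27.0 CPM in r1r2V, against 16.7, 18.1 and 18.2 CPM in V. Replicates 1 and 4 lay within the range of V and replicate 5 was 1.53-fold above the V mean. Col11a1 and Col11a2, which encode chains of the minor fibrillar type XI collagen, did not follow that library. Col11a1 had 27.2, 15.5 and 14.6 CPM in r1r2V, against 15.7, 19.2 and 16.9 CPM in V, with replicate 1 highest. Col11a2 had 16.1, 9.71 and 11.8 CPM in r1r2V, against 13.7, 11.5 and 16.4 CPM in V, with overlapping groups. Of the fibrillar collagens below 2 FPKM, the type I and III genes are given as an addition chosen after their values were seen. Col1a1, the partner of Col1a2, had 5.11, 3.33 and 9.50 CPM in r1r2V, against 5.36, 5.24 and 4.00 CPM in V. Col3a1, which encodes type III collagen, had 3.13, 6.84 and 9.09 CPM in r1r2V, against 3.84, 5.18 and 3.55 CPM in V. Both were highest in replicate 5, as Dcn and Ogn were. Over all 11 fibrillar genes the highest library was r1r2V replicate 1 for 6 and r1r2V replicate 5 for 4.

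The type IV collagen genes Col4a2 and Col4a1 held the highest levels per length among the basement membrane and network collagens, with means of 7.82 and 5.82 FPKM. Those of Col4a3, Col4a4, Col4a5 and Col4a6 were 0.08 to 0.87 FPKM, below Col8a2 at 2.41 FPKM. Col4a2 had 72.2, 36.8 and 40.5 CPM in r1r2V, against 48.3, 49.1 and 51.8 CPM in V. The V libraries lay within a narrow range, with replicate 1 of r1r2V above it and replicates 4 and 5 below it. The standard deviation on the log2 scale was 0.52 in r1r2V and 0.05 in V. Col4a1, whose product joins that of Col4a2 in the common basement membrane trimer, had 47.4, 37.3 and 34 CPM in r1r2V, against 37.2, 35.3 and 37.2 CPM in V. It too was highest in replicate 1, by less. Col8a2, which encodes a short-chain network collagen, had 9.17, 9.13 and 11.5 CPM in r1r2V, against 7.34, 13.3 and 10.7 CPM in V. It was one of 4 tested collagens that spread more in V than in r1r2V, the others being Col4a5, Col13a1 and Col23a1.

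Col9a2 and Col9a3 encode chains of type IX collagen, a FACIT collagen known from cartilage, and both had a higher mean level per length than Col1a2, at 10.6 and 4.28 FPKM beside 3.75 FPKM. Col9a2 had 28.7, 23.2 and 24.1 CPM in r1r2V, against 31.9, 27.6 and 32.5 CPM in V. Col9a3 had 12.6, 9.19 and 8.16 CPM in r1r2V, against 13.2, 14.0 and 13.4 CPM in V. All r1r2V libraries were below all V libraries for Col9a3, and for Col9a2 r1r2V replicate 1 overlapped V. Exons of Col9a3, on chromosome 2 from 180598102 to 180622192, overlap those of Tcfl5 on the other strand by 234 bp. Col16a1, a FACIT gene of fibroblasts and smooth muscle, had 23.3, 10.6 and 13.3 CPM in r1r2V, against 15.9, 21.9 and 20.0 CPM in V. As for Col4a2, replicate 1 was the highest library and replicates 4 and 5 lay below all of V.

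Col25a1, which encodes a membrane-spanning collagen made by neurons, had the highest level per length of all collagens, with a mean of 16.3 ± 1.07 FPKM in r1r2V and 18.5 ± 1.05 FPKM in V (SD, n = 3 each). It had 123, 113 and 112 CPM in r1r2V, against 133, 138 and 124 CPM in V. The r1r2V libraries lay below V in CPM, but r1r2V replicate 1 and V replicate 4 overlapped in FPKM (17.48 and 17.42). Among the tested collagens it was also the most even in r1r2V, with a log2 standard deviation of 0.08 in both groups.

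Among the beaded filament collagens, Col6a2 had 8.24, 3.62 and 13.6 CPM in r1r2V, against 7.96, 7.55 and 9.26 CPM in V. Col6a1, whose product assembles with that of Col6a2 and whose gene lies 85161 bp away on chromosome 10, had 10.1, 6.43 and 11.1 CPM in r1r2V, against 7.56, 7.89 and 9.20 CPM in V. Replicate 4 of r1r2V was the lowest library and replicate 5 the highest for both. Col26a1, a small secreted collagen, had 5.92, 4.42 and 6.82 CPM in r1r2V, against 6.83, 6.82 and 6.66 CPM in V, the V libraries being nearly equal. Col15a1, a multiplexin of the zone beside basement membranes, had 14.0, 7.76 and 10.4 CPM in r1r2V, against 14.0, 13.0 and 12.8 CPM in V. Col7a1, which encodes the collagen of anchoring fibrils, had 3.19, 1.67 and 1.69 CPM in r1r2V, against 0.959, 1.86 and 1.46 CPM in V. In Col7a1 replicate 1 of r1r2V lay above the rest, which overlapped, and in Col15a1 it lay with V.

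No collagen passed the test in either direction with edgeR, DESeq2, limma-voom or limma on FPKM values. At an unadjusted p under 0.05, 0 collagens were higher in r1r2V and 3 were lower, where 3.95% of all genes were higher and 3.63% lower. On the log2 scale the fold change was -0.44 ± 0.153 for Col9a3 (standard error; adjusted p = 0.538), -0.28 ± 0.101 for Col9a2 (adjusted p = 0.573) and -0.18 ± 0.0699 for Col25a1 (adjusted p = 0.579), by edgeR. Groups that did not overlap were seen for 0 tested collagens with r1r2V higher, beside 6.87% of all genes, and for 2 with r1r2V lower, Col9a3 and Col25a1, beside 7.63% of all genes. The log2 fold change ran from -0.44 for Col9a3 to 0.61 ± 0.336 for Col7a1 (adjusted p = 0.683). It was 0.23 for Col1a2, 0.11 for Col4a1, 0.003 for Col4a2, -0.29 for Col16a1 and -0.31 for Col15a1, none with an adjusted p under 0.7. Of the 41, 28 were positive, with a median of 0.09, which was -0.17 without r1r2V replicate 1, 0.18 without r1r2V replicate 4 and 0.12 without r1r2V replicate 5.

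**Figure D3:**
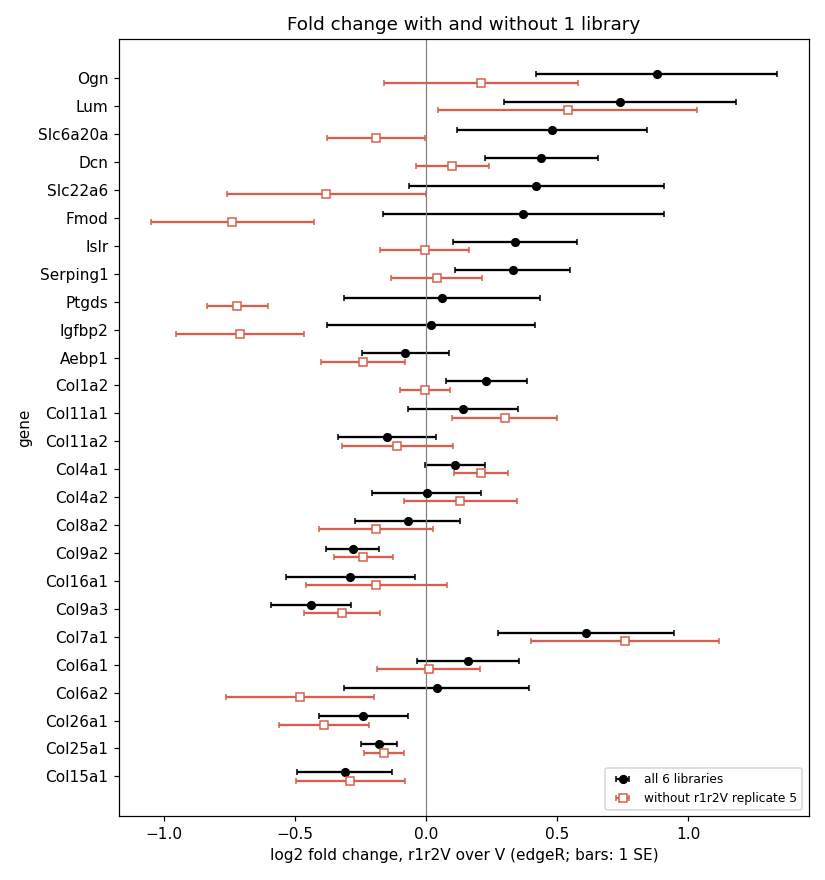
Log2 fold change of r1r2V over V with 1 standard error (edgeR) for the 26 genes described one by one, from all 6 libraries (black) and without r1r2V replicate 5 (red, open squares). Without that library Ptgds is at -0.72 and Fmod at -0.74, while Col9a3 is at -0.32, against -0.44 with all libraries.

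The spread within a group was larger in r1r2V than in V for 48 of the 52 tested genes (92.3%), as it was for 71.8% of all genes tested. The median standard deviation of log2(CPM + 0.5) was 0.79 in r1r2V and 0.23 in V for the fibroblast genes, 0.46 in r1r2V and 0.19 in V for the collagens, and 0.13 in r1r2V and 0.08 in V for all genes. Counting noise is part of such a standard deviation in genes of low count, so the chi-square per degree of freedom of the counts is given beside it. Its median was 40.3 in r1r2V and 7.68 in V for the fibroblast genes, 8.85 in r1r2V and 1.61 in V for the collagens, and 3.70 in r1r2V and 1.5 in V for all genes. In V the collagens were close to the median of all genes by chi-square (1.61 against 1.5) but above it by standard deviation (0.19 against 0.08). The fibroblast genes were above it by both. The chi-square also grows with the read number of a gene, so it cannot rank sets of unlike level. By family the median log2 standard deviation was 0.52 in r1r2V and 0.19 in V for fibrillar, 0.36 in r1r2V and 0.23 in V for network, 0.49 in r1r2V and 0.19 in V for FACIT, 0.54 in r1r2V and 0.20 in V for beaded filament and related collagens, and 0.43 in r1r2V and 0.10 in V for the 2 multiplexins. The 3 tested transmembrane collagens went the other way, at 0.09 in r1r2V and 0.15 in V, with the larger spread in r1r2V for 1 of them. In Col6a2 it was 0.90 in r1r2V and 0.14 in V, in Fmod 1.19 in r1r2V and 0.59 in V, in Ogn 1.12 in r1r2V and 0.42 in V, and in Ptgds 0.96 in r1r2V and 0.19 in V.

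**Figure D4:**
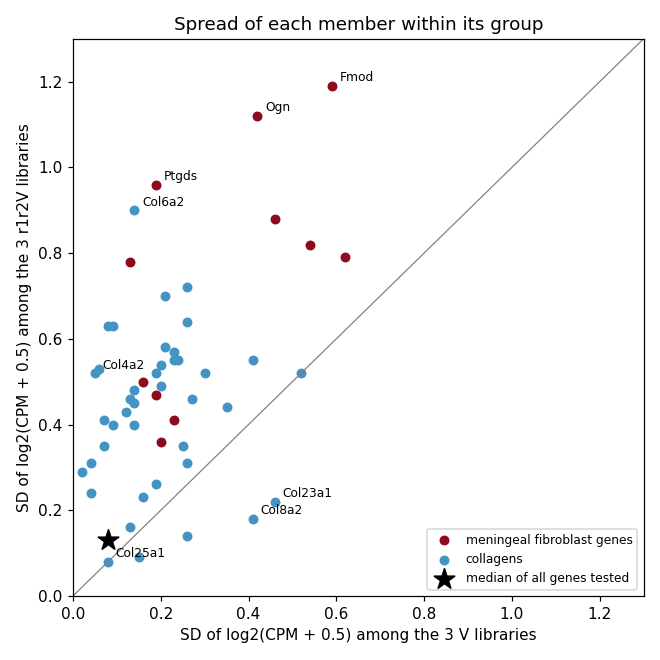
Standard deviation of log2(CPM + 0.5) among the 3 r1r2V libraries (vertical) against that among the 3 V libraries (horizontal), 1 point a gene, with the median of all genes tested as a star and equal spread as a line. Most points lie above the line, with Fmod at 1.19 in r1r2V and 0.59 in V.

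Transcript length and GC content moved with the level in single libraries, and the collagens are long and GC-rich. Over genes with at least 1 CPM, cut into 5 bins of GC content, the median log2 level relative to the V mean in r1r2V replicate 4 was 0.17, 0.07, 0.004, -0.08 and -0.18 from the lowest GC bin to the highest. In r1r2V replicate 1 it was -0.05, -0.03, -0.01, 0.01 and 0.07 from the shortest bin of length to the longest. Of 36 collagens in these bins, 18 were in the top GC bin and 29 in the top length bin, as were 3 and 0 of the 11 fibroblast genes. In the top bin of length and the upper 3 bins of GC, 25 collagens had medians of 0.37, -0.26 and -0.04 in r1r2V replicates 1, 4 and 5, and 1259 other genes had 0.09, -0.09 and -0.04. When the median deviation of each library in each of 25 bins of length and GC was removed, the medians were 0.22, -0.17 and 0.04 for the 41 collagens and -0.25, -0.21 and 0.95 for the fibroblast genes. Replicate 1 was then highest for 18 collagens, replicate 4 lowest for 18, and replicate 5 highest for all 11 fibroblast genes. The part of length and GC in single genes was not tested.

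**Figure D5:**
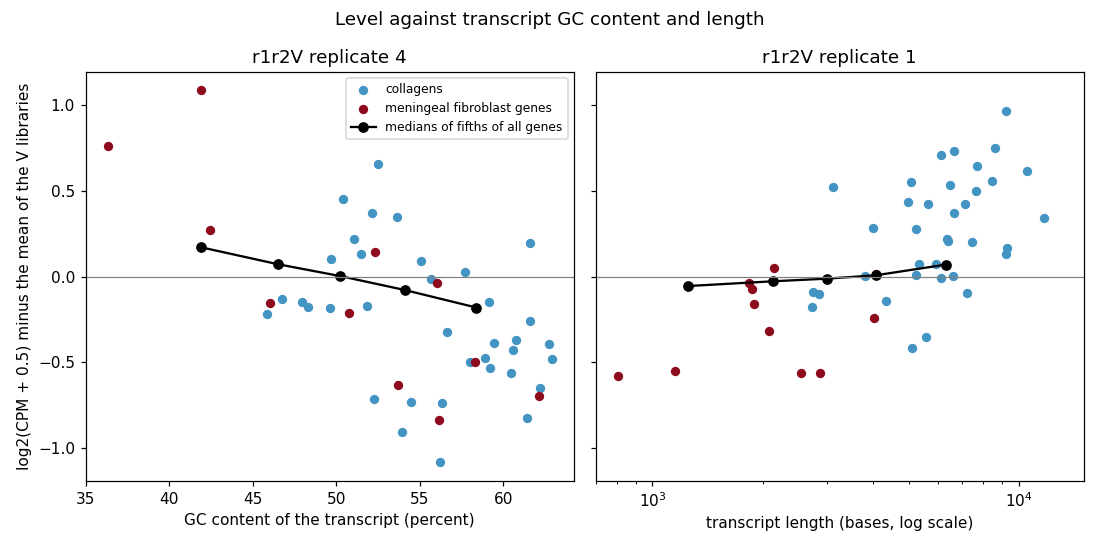
Log2(CPM + 0.5) minus the V mean in r1r2V replicate 4 against transcript GC content in percent (left) and in r1r2V replicate 1 against transcript length in bases on a log scale (right), 1 point a gene, with medians of 5 equal bins of all genes in black. The black line goes down with GC content to -0.18 on the left and up with length to 0.07 on the right, with collagens spread on both sides of it.

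The machinery that folds and cross-links collagen was measured in 28 tested genes, of which 0 rose (0.298% of all genes did) and 1 fell (0.118% of all genes did). Fkbp10, which encodes a collagen chaperone of the endoplasmic reticulum, had 5.28, 4.08 and 4.95 CPM in r1r2V, against 8.92, 9.30 and 7.87 CPM in V. All r1r2V libraries lay below all V libraries, at a log2 fold change of -0.87 ± 0.15 (standard error; edgeR adjusted p = 0.0446). The call was also made by limma-voom, by DESeq2 and on log2(FPKM + 1). It was lost on log2(FPKM + 0.1), with at least 1 CPM in 3 libraries, and without any 1 of the 6 libraries, with an adjusted p of 0.0714 without r1r2V replicate 1, 0.133 without r1r2V replicate 4 and 0.089 without r1r2V replicate 5, and, leaving out V replicates 2, 3 and 4 in turn, of 0.274, 0.231 and 0.120. Its adjusted p was 0.00575 to 0.274 over all alternatives. The most abundant genes of the list were even. P4hb, a subunit of collagen prolyl 4-hydroxylase, had 168, 178 and 179 CPM in r1r2V, against 175, 173 and 179 CPM in V, and P4ha1, a catalytic subunit, had 72.7, 65.1 and 65.9 CPM in r1r2V, against 53.6, 65.9 and 62.4 CPM in V. The median of the 28 was -0.01.

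Of 26 other extracellular matrix genes of fibroblasts, 0 passed in edgeR, with 2 higher and 0 lower at an unadjusted p under 0.05 (3.95% and 3.63% of all genes), 1 higher by DESeq2 and 0 by limma-voom. Replicate 5 of r1r2V was the highest library for 14 of them (53.8%), and the median log2 fold change was -0.01, which was 0.12 without r1r2V replicate 1 and -0.14 without r1r2V replicate 5. The lowest library was more often r1r2V replicate 1 (12 genes, 46.2%, against 18.6% of all genes) than r1r2V replicate 4 (9 genes, 34.6%, against 24.8%). Sparc, which encodes a collagen-binding matrix protein, had 1870, 1390 and 2410 CPM in r1r2V, against 2110, 2120 and 2070 CPM in V, with r1r2V replicate 5 highest and replicate 4 lowest. Timp3 had 178, 224 and 242 CPM in r1r2V, against 224, 211 and 226 CPM in V, with r1r2V replicate 5 highest and replicate 1 lowest. Fn1, the fibronectin gene, chosen after its values were seen, had 35.6, 25.2 and 53.6 CPM in r1r2V, against 31.0, 40.1 and 34.2 CPM in V.

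A list of 31 tested further markers of meningeal fibroblasts showed the same library. It too was drawn up with earlier results of these data known, so it is no separate support. Replicate 5 of r1r2V was highest for 23 of them (74.2%, against 16.7% of all genes) and lowest for 2, Zic1 and Zic4 (6.45%, against 16.9%). Their summed level was 1073, 1132 and 1376 CPM in r1r2V, against 1068, 1089 and 1142 CPM in V, and no marker of the list was at 0 counts in r1r2V replicate 5. In edgeR 0 passed, with 7 higher and 0 lower at an unadjusted p under 0.05 (3.95% and 3.63% of all genes), 1 higher by DESeq2 and 0 by limma-voom. In 6 of the 31 every r1r2V library lay above every V library, beside 6.87% of all genes, and in 0 every r1r2V library lay below every V library, beside 7.63% of all genes. The median log2 fold change was 0.24, and 0.01 without r1r2V replicate 5. The most abundant of them are shared with other cells: Alcam had 187, 238 and 195 CPM in r1r2V, against 204, 203 and 195 CPM in V, and Cldn11, also a myelin gene, had 166, 168 and 243 CPM in r1r2V, against 170, 164 and 232 CPM in V. Zic1, also among the 4 most abundant, had 88.1, 77.2 and 62.9 CPM in r1r2V, against 82.3, 76.2 and 81.2 CPM in V. Gjb6, a gap junction gene of meningeal fibroblasts and astrocytes, had 143, 141 and 175 CPM in r1r2V, against 115, 130 and 133 CPM in V, with all of r1r2V above all of V (log2 fold change 0.28, adjusted p = 0.521). The 2 largest log2 fold changes of the list, chosen after their values were seen, were those of Aldh1a2, an enzyme gene of retinoic acid synthesis, and Slc6a13, a GABA transporter gene. Aldh1a2 had 6.62, 8.50 and 13.0 CPM in r1r2V, against 3.84, 6.31 and 4.19 CPM in V (log2 fold change 0.97, adjusted p = 0.345), and Slc6a13 had 4.47, 6.61 and 8.80 CPM in r1r2V, against 3.33, 3.61 and 3.49 CPM in V (log2 fold change 0.93, adjusted p = 0.257). All of r1r2V lay above all of V in both.

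Mural cell markers (14 tested) had r1r2V replicate 5 highest in 3 (21.4%, against 16.7% of all genes). Their summed levels were 247, 283 and 309 CPM in r1r2V, against 271, 274 and 270 CPM in V. Their median log2 fold change was 0.003 (-0.05 without r1r2V replicate 5 and 0.07 without r1r2V replicate 1). Of them 0 passed by edgeR, DESeq2 or limma-voom, and 0 had an unadjusted p under 0.05. Endothelial markers (15 tested) had r1r2V replicate 5 highest in 7 (46.7%, against 16.7% of all genes). Replicate 1 of r1r2V was lowest for 9 of them (60.0%, against 18.6% of all genes). Their summed levels were 376, 408 and 468 CPM in r1r2V, against 424, 435 and 440 CPM in V. Their median was -0.07 (0.05 without r1r2V replicate 1 and -0.18 without r1r2V replicate 5). Of them 0 passed by these tools, with 1 higher and 1 lower at an unadjusted p under 0.05. Choroid plexus markers (12 tested) had r1r2V replicate 5 highest in 2 and lowest in 5, and a median of 0.15, which ran from -0.05 without r1r2V replicate 4 to 0.14 over the fits without 1 library and was 0.04 without r1r2V replicate 5, 0.01 without V replicate 3 and 0.02 without V replicate 4. Ependymal markers (11 tested) had r1r2V replicate 5 highest in 0 and lowest in 4, and V replicate 3 highest in 10. Their summed level was 222, 230 and 217 CPM in r1r2V, against 238, 264 and 232 CPM in V, and their log2 fold changes were negative in all 11, with a median of -0.11 that was -0.04 without V replicate 3. In both lists 0 passed by these tools, with 1 choroid plexus marker higher and 2 ependymal markers lower at an unadjusted p under 0.05.

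Neuron markers were read to see which tissue the punches held. SCN neuron genes (16 tested) had a median log2 fold change of -0.13, which was -0.01 without r1r2V replicate 5 and -0.05 without r1r2V replicate 4 or without V replicate 3, and r1r2V replicate 5 was the lowest library for 8 of them, with 0 passing by edgeR or limma-voom, 1 higher by DESeq2, and 2 higher and 3 lower at an unadjusted p under 0.05. The vasopressin gene Avp had 160, 190 and 384 CPM in r1r2V, against 247, 259 and 360 CPM in V. Genes of neighbouring hypothalamic neurons (15 tested) had a median of -0.08, which ran from -0.19 without r1r2V replicate 5 to 0.07 without V replicate 3, with 0 passing by edgeR, DESeq2 or limma-voom and 1 higher and 2 lower at an unadjusted p under 0.05. Nr5a1, a marker of the ventromedial nucleus chosen after its values were seen, had 2.55, 1.09 and 23.7 CPM in r1r2V, against 1.92, 24.6 and 6.79 CPM in V. As for Pmch, its high libraries were r1r2V replicate 5 and V replicate 3. These were also the highest library of each group for Aebp1, Fmod, Igfbp2, Islr, Ogn, Ptgds, Slc22a6 and Slc6a20a, but not for Dcn, Lum and Serping1. How many of all genes shared this was not counted. Among the most abundant neighbouring genes Sst shared it, and Oxt and Trh did not. Sst had 216, 126 and 286 CPM in r1r2V, against 208, 288 and 255 CPM in V. Oxt had 641, 505 and 797 CPM in r1r2V, against 947, 702 and 944 CPM in V. Trh had 298, 294 and 270 CPM in r1r2V, against 332, 294 and 378 CPM in V. Over the 15 genes of that list r1r2V replicate 5 was the highest library for 3 and the lowest for 4. Gal, Esr1 and Kiss1, also chosen after their values were seen, were lowest there, Gal at 64.0, 99.0 and 21.0 CPM in r1r2V, against 96.1, 59.9 and 63.1 CPM in V, Esr1 at 49.0, 101 and 23.0 CPM in r1r2V, against 53.1, 36.3 and 38.0 CPM in V, and Kiss1 at 13.3, 4.94 and 0.175 CPM in r1r2V, against 10.2, 3.61 and 5.01 CPM in V. The part of the neighbouring tissue in the fibroblast gene levels was not tested.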

How the data were processed

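RNA was sequenced from 6 SCN libraries, 3 r1r2V and 3 V. Each deposited table lists, per the file headers, a transcript length, an expected count (an estimated read number, not whole for 9.9% of values) and an FPKM per gene. Per the submitters' processing notes, the build was mm10 and the tools named are RSEM 1.2.12, Bowtie2 2.2.5, HISAT2 2.0.4, Cufflinks 2.2.1, StringTie 1.0.4, DESeq2 and GATK. The sources used here do not give each tool's role or the use of strand. A gene not listed for a library was taken as 0, and 15460 genes were listed in all 6.

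Expected counts were rounded. Genes were kept by filterByExpr (minimum count 10) and compared with the quasi-likelihood test of edgeR 4.0.16 in R 4.3.3, with TMM scaling and Benjamini-Hochberg adjustment over 14438 genes at 0.05. Log2 fold changes are r1r2V over V. Alternatives were DESeq2 1.42.0, limma-voom (limma 3.58.1), RLE and upper-quartile scaling, no filter, at least 1 CPM in 3 libraries, limma-trend on log2(FPKM + 1) and log2(FPKM + 0.1), and leaving out each library. Limma-trend on log2(CPM + 0.5), with and without medians of 25 length and GC bins removed, was added after the data were seen.

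Genes described one by one are the 11 fibroblast genes, collagens with a mean of at least 2 FPKM, the collagens with the largest and smallest log2 fold change, and, of the 10 other lists, called genes and some of the 4 most abundant, with Vip, Avp, Six6, Ttr, Kl, Folr1, Mbp, Mobp, Nr1d1 and Nr1d2. Members and lists were chosen with earlier results of these data known. Vtn, Cldn11 and Enpp2 stand in more than 1 list. Positions are RefSeq's for GRCm38 and transcripts GENCODE's, matched for 17489 of 17645 listed genes (99.1%). No member had a near-identical transcript of another gene (BLAST 2.17.0, 95% identity over 0.5 of the shorter). Of the marker genes read beside the members, 1 is not reported here.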

Additional observations from a re-analysis of the deposited data

How the results depend on the processing

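Over the alternatives, 26 described genes gave 43 log2 fold changes of the other sign from 14 genes, 5 of which turned outside the fits that leave out a library. These 5 lay between -0.07 and 0.06 with all libraries in edgeR. Ptgds was at -0.16 with limma-voom, log2(FPKM + 1), log2(FPKM + 0.1) and limma-trend on log2(CPM + 0.5), and at -0.08 with length and GC bins removed. Igfbp2 was at -0.14, -0.07, -0.08, -0.12 and -0.04 in the same order of fits, Col4a2 at -0.06, -0.06, -0.07, -0.06 and -0.01, and Col6a2 at -0.15, -0.06, -0.14, -0.13 and -0.06. Col4a2 was also at -0.003 with upper-quartile scaling, and Col8a2 at 0.03 with bins removed. The cause was not tested. Over the fits that leave out 1 library, the log2 fold change ran from -0.72 to 0.36 for Ptgds, -0.71 to 0.30 for Igfbp2, -0.24 to 0.10 for Aebp1, -0.74 to 0.77 for Fmod, -0.005 to 0.50 for Islr, -0.19 to 0.73 for Slc6a20a, -0.38 to 0.82 for Slc22a6, -0.004 to 0.34 for Col1a2, -0.20 to 0.30 for Col11a1, -0.37 to 0.01 for Col11a2, -0.36 to 0.18 for Col4a2, -0.04 to 0.21 for Col4a1, -0.28 to 0.14 for Col8a2 and -0.48 to 0.41 for Col6a2. The median of the collagens ran from -0.17 (without r1r2V replicate 1) to 0.18, and that of the fibroblast genes from -0.19 (without r1r2V replicate 5) to 0.64. Members called higher stayed at 0 in every fit, and members called lower were 0 to 1, the 1 being Ptgds without r1r2V replicate 5. Among all genes, DESeq2 called 69 higher and 40 lower, and the fits without 1 library 19 to 52 higher and 7 to 24 lower, and leaving out V replicate 2 gave 20 higher and 7 lower, V replicate 3 gave 20 and 8, and V replicate 4 gave 19 and 7. Collagens whose groups did not overlap were 1 on library totals and 1 on deposited FPKM, in place of 2. No paired analysis was possible because r1r2V and V have just 1 replicate number in common (4). With 3 libraries a group, an exact test on 1 gene cannot go below a two-sided p of 0.1.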

Other observations

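Type IV collagen genes lie in pairs that start beside each other on opposite strands, and their levels by library are set side by side here. Col4a1 and Col4a2 overlap by 85 bp on chromosome 8. Per length, Col4a2 had 11.45, 5.72 and 6.28 FPKM in r1r2V, against 7.56, 7.75 and 8.14 FPKM in V, and Col4a1 had 7.33, 5.65 and 5.14 FPKM in r1r2V, against 5.67, 5.43 and 5.69 FPKM in V. In r1r2V replicate 4 the pair was nearly equal, and Col4a2 was the higher of the pair in the other libraries. Col4a3 and Col4a4 overlap by 114 bp on chromosome 1 and are known from the basement membranes of kidney, ear and eye. Col4a3 had 2.09, 1.61 and 0.991 CPM in r1r2V, against 0.959, 1.01 and 1.14 CPM in V, and Col4a4 had 1.10, 0.632 and 0.350 CPM in r1r2V, against 0.790, 0.394 and 0.508 CPM in V. Exons of Col4a3 overlap those of C430014B12Rik on the other strand by 563 bp. Col4a5 and Col4a6 lie 1274 bp apart on chromosome X. Col4a6 had 2.32, 1.67 and 1.34 CPM in r1r2V, against 1.47, 1.3 and 0.888 CPM in V, and Col4a5 had 6.15, 5.80 and 5.01 CPM in r1r2V, against 5.36, 6.31 and 4.25 CPM in V. In all 6 type IV genes the order within r1r2V put replicate 1 highest, while replicate 4 lay between the others in Col4a1, Col4a3, Col4a4, Col4a5 and Col4a6 and lowest in Col4a2. Of these, Col4a3, Col4a4, Col4a5 and Col4a6 were chosen after their values were seen.

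Type VI collagen genes did not share 1 library. Col6a5, chosen after its values were seen, had 17, 16.3 and 7.40 CPM in r1r2V, against 12.6, 18.4 and 14.9 CPM in V, with r1r2V replicate 5 lowest, where Col6a1 and Col6a2 were highest. Col6a3, likewise chosen after its values were seen, had 4.18, 2.07 and 4.43 CPM in r1r2V, against 2.93, 4.68 and 3.87 CPM in V. Like Col6a1 and Col6a2 it was highest in replicate 5 and lowest in replicate 4 among the r1r2V libraries.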
